A study of Mus musculus with 14 samples.

Results

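The genes described here are *Bnip3*, *Bnip3l*, *Fam162a*, *Higd1a*, *Ddit4*, *Stc2*, *Ankrd37*, *Kdm3a*, *Mxi1* and *Bhlhe40*, 10 genes known as targets of hypoxia signalling that act on mitochondria, growth control, secretion or transcription. They were listed by name, with earlier results of these data known, and all 10 were found among the 39179 genes of the differentiation table and the 35886 genes of the sorted libraries. RNA was sequenced from Ocy454 cells, a single mouse osteocyte-like line. A temperature-sensitive large T antigen drives its growth at 33 °C, and cultures are moved to 37 °C to mature. The differentiation experiment has 8 libraries, 2 biological duplicates at each of days 1, 7, 10 and 14 at 37 °C. The sorting experiment has 6 libraries, 3 of CD61high and 3 of CD61low cells. These were the 10% of live cells with the highest and the lowest surface label for CD61 (integrin beta-3) after 17 days at 37 °C, taken from 3 independent groups of cells. The labels name no other genetic change and no drug in any group, and the labels give no oxygen level for the cultures.

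When oxygen is scarce, the hypoxia-inducible factors (HIF) escape degradation and switch on genes that hold the core letters ACGTG or GCGTG near their start. One arm of this response spares oxygen by removing or retuning mitochondria. *Bnip3* and *Bnip3l* encode outer membrane receptors that tether a mitochondrion to the autophagy machinery. Another arm slows growth, as *Ddit4* does by restraining mTORC1, and yet another changes transcription itself through repressors and histone demethylases. Osteocytes lie inside mineralized matrix, where oxygen is known to be low, and HIF signalling in the osteoblast lineage is known for its effects on bone mass and vessels.

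The reads counted on genes ranged from 27518605 to 34311238 per differentiation library, and the estimated counts from 18815602 to 19220064 per sorted library. No libraries of a group were near-copies, since their counts differed by a chi-square of 2.28 to 19.9 for each gene, against the 1 of pure sampling. Markers of the osteoblast and osteocyte lineage (8 of 8 found) summed to 15948 CPM (read counts scaled to a common library total) or more in every library, although *Sost* and *Mepe* were at 0 at day 1 and *Mepe* at 0 in CD61low cells. Most of this sum was *Col1a1*, with means of 34709 CPM at day 1 and 25242 CPM at day 14. Of 7 lineage markers tested, limma called 5 higher and 0 lower at day 14 against day 1 (7.51% and 5.9% of all genes). The summed endothelial, adipocyte and muscle markers stayed below 1 CPM in every library. Of 10 cell cycle genes tested, limma called 0 at days 7, 10 or 14 against day 1 and edgeR on the recovered reads 0 (3, 2 and 2 higher and 4, 6 and 4 lower at an unadjusted p below 0.05), and *Mki67*, a marker of cycling cells, was at 283 ± 22.3 CPM (SD, n = 2) at day 1 against 299 ± 27.9 CPM at day 14. *Itgb3*, which encodes the sorted protein, had 5.31 to 6.10 CPM in CD61low and 100.1 to 130.1 CPM in CD61high cells.

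Most of the 10 genes rose during differentiation. A gene was called at an adjusted p below 0.01 (limma on log2(CPM + 1), Benjamini-Hochberg over the 12725 genes tested) with a Log2FC above 1 or below -1, where Log2FC is the difference between 2 groups on that log2 scale. All 10 genes passed the filter of a CPM above 1 in at least 1 library. *Ankrd37* was below 1 CPM at day 1 and the other 9 were above it in every library. Against day 1, 8 of the 10 were called higher and 0 lower at day 7, where 4.49% of all genes tested were called higher and 4.62% lower. At day 10, 5 were called higher and 0 lower, against 6.06% and 4.42% of all genes. At day 14, 8 were called higher and 0 lower, against 7.51% and 5.9% of all genes. At an unadjusted p below 0.05, 0, 1 and 1 of the 10 were lower at these days, and edgeR on the recovered reads called the same numbers of genes, with 0 lower and 8, 5 and 8 higher. The median Log2FC of the 10 genes was 1.70, 1.08 and 2.06 at the 3 days, and that of all genes was -0.05, 0.02 and -0.03. These 3 comparisons share the 2 libraries of day 1. Where libraries of different days are said below not to overlap, the share of all genes with such a separation was not counted. Other genes moved over the same days. Of 11 immediate early genes tested, 2 were called higher and 1 lower at day 7, 5 higher at day 10 and 6 higher at day 14. Macrophage markers summed to 1.74 to 5.09 CPM over the 8 libraries, lowest at day 7 and highest at day 10, where *Cd68* was called higher than at day 1. Cartilage markers summed to 66.2 to 81.1 CPM up to day 10 and 102 to 120.5 CPM at day 14, with *Acan* called lower at day 10 than at day 1 and higher from day 10 to day 14. Their part in the differences of the 10 genes was not tested. In such bulk samples, fewer cells expressing a gene and less RNA per cell cannot be told apart.

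**Figure D1:**
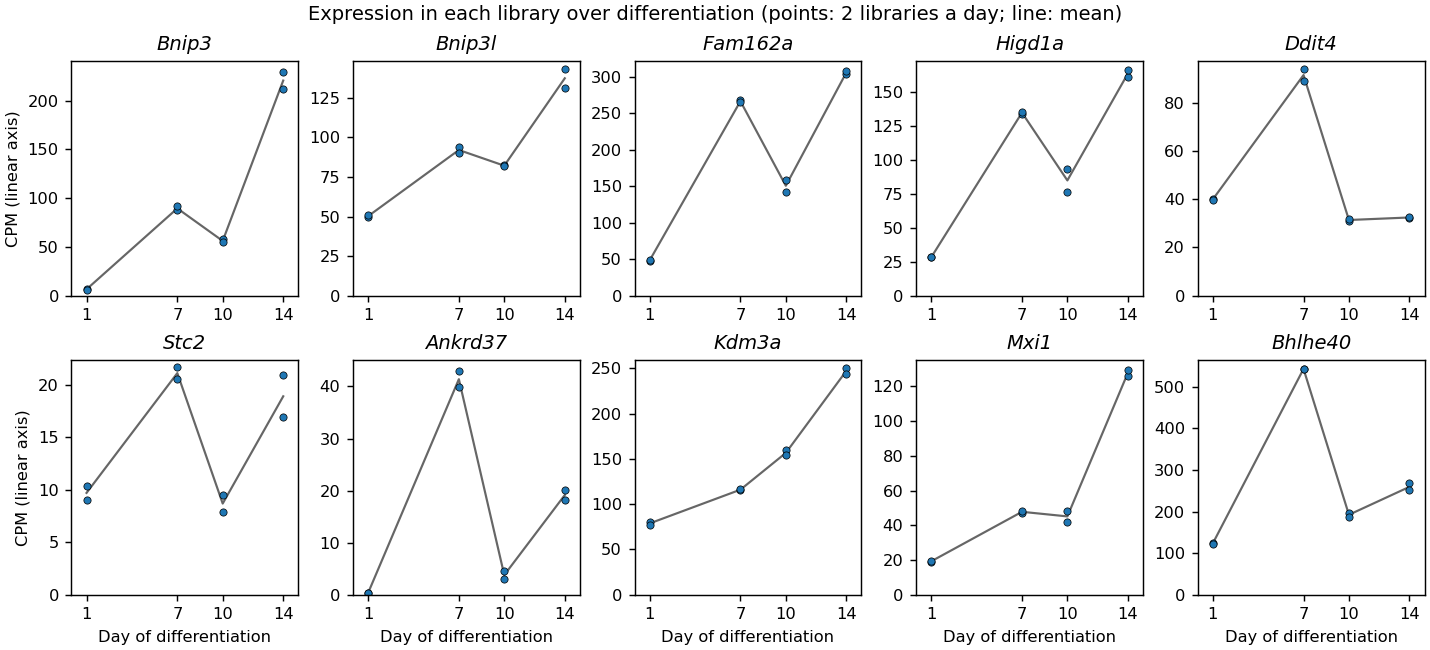
Expression (CPM, linear axis from 0) of the 10 genes against the day of differentiation; points are the 2 libraries of a day and the line joins their means. *Ankrd37*, *Bhlhe40*, *Ddit4* and *Stc2* have their highest mean at day 7, the other 6 genes at day 14, and all except *Kdm3a* have a lower mean at day 10 than at day 7.

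The mitophagy receptors come first. *Bnip3* (chr7:138490690-138511253, GRCm39, minus strand) had 6.94 and 6.30 CPM in the libraries of day 1, 87.6 and 91.5 CPM at day 7, 57.8 and 54.6 CPM at day 10, and 212 and 229 CPM at day 14. No libraries of different days overlapped, and the order from low to high was day 1, day 10, day 7 and day 14. The mean rose from 6.62 ± 0.447 CPM to 220.5 ± 12.5 CPM (SD, n = 2), a ratio of 33.3. In the limma fit the Log2FC against day 1 was 3.57, 2.91 and 4.86 at days 7, 10 and 14 (standard error 0.06, adjusted p at most 7.9e-25), and the last ranked 30 from the top of all 12725 genes. On this scale it was the largest day 14 value among the 10 genes, although the ratio of means was larger for *Ankrd37* (57.3).

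Its promoter is printed because it held the only CACGTG among the 12 promoter windows of these genes. It comes from RefSeq on GRCm38.p6 (chr7:138909457-138909756, minus strand, a build other than that of the gene coordinates), spans 250 bases before to 50 bases after the start, and has the matches to ACGTG or GCGTG on either strand in capitals (a match on the other strand reads CACGT or CACGC).
Bnip3: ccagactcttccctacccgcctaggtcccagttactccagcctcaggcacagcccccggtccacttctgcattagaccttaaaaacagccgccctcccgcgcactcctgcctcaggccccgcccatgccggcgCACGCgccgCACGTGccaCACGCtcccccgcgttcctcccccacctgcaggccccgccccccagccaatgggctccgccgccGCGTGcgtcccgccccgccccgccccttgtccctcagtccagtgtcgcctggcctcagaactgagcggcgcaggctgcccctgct
It held 2 matches to ACGTG, which together form the palindrome CACGTG 108 bases before the start, and 3 matches to GCGTG, at 117, 99 and 35 bases before it. A window with at least 5 such matches was found in 1.66% of the 32851 mouse promoters of the table, and CACGTG in 7.15%.

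*Bnip3l* (Nix; chr14:67222678-67246356, minus strand), the close relative of *Bnip3* that clears mitochondria from maturing red cells, started higher and moved less. It had 49.7 and 50.8 CPM at day 1, 93.7 and 90.5 CPM at day 7, 82.3 and 82.0 CPM at day 10, and 131 and 144 CPM at day 14. Every later library lay above both libraries of day 1. The Log2FC was 0.86 at day 7 and 0.70 at day 10, neither past 1, and 1.43 at day 14 (standard error 0.05, adjusted p = 6.6e-20, limma), a ratio of means of 2.73. The transcript of *Bnip3l* shares 28.4% of its 31-base words with *Gm58964* and the pseudogene *Bnip3l-ps*, so the split of its reads is uncertain. *Bnip3l-ps* was listed at 0 in all 6 sorted libraries. For *Bnip3* 34.9% of the words also occur in other genes, 2312 in all. That count used the GENCODE M39 form of its main transcript, with 3647 bases. The form quantified in the sort has 1756 bases and the differentiation table gives 2259, and the share within these was not determined.

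2 smaller mitochondrial proteins gave nearly the same profile. *Fam162a* (chr16:35863243-35892123, minus strand), a mitochondrial protein linked to cell death under hypoxia, had 47.2 and 49.5 CPM at day 1, 268 and 265 CPM at day 7, 159 and 142 CPM at day 10, and 303 and 308 CPM at day 14. *Higd1a* (chr9:121677622-121687428, minus strand), an inner membrane protein that associates with the respiratory chain, had 28.4 and 28.2 CPM at day 1, 134 and 136 CPM at day 7, 93.3 and 76.5 CPM at day 10, and 161 and 166 CPM at day 14. In both genes the day 10 libraries sat between those of days 1 and 7, with no overlap. The Log2FC at days 7, 10 and 14 was 2.44, 1.62 and 2.64 for *Fam162a* (standard error 0.04) and 2.21, 1.55 and 2.49 for *Higd1a* (standard error 0.06), all 6 called by limma with adjusted p of at most 2.5e-18.

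The promoter of *Fam162a* is shown as the one with the most matches to the 2 core motifs (chr16:36071512-36071811, GRCm38.p6, RefSeq, minus strand, capitals as above).
Fam162a: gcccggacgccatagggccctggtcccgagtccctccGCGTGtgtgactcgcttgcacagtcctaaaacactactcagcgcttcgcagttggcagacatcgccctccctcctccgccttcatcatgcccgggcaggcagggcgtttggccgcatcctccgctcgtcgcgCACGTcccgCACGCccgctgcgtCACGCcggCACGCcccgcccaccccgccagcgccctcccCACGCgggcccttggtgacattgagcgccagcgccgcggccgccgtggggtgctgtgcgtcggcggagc
It held 1 ACGTG at 81 bases and 5 GCGTG between 213 and 19 bases before the start, and 0.694% of all promoters in the table held at least 6 matches. The window of *Higd1a* held 1 ACGTG, 44 bases after the start, and 2 GCGTG. In GENCODE M39 the main *Fam162a* transcript has 1676 bases, and 62.3% of its 31-base words are also covered by *Wdr5b* on the opposite strand. The version quantified in the sort has 718 bases and the differentiation table gives 630. The share within these shorter forms was not determined. *Wdr5b* had 9.21, 7.52, 8.42 and 7.10 CPM at days 1, 7, 10 and 14. *Mix23* (*Ccdc58* in the differentiation table), which overlaps the other end of the gene and shares no 31-base word with its main transcript, had 15.6, 22.5, 16.8 and 27.7 CPM. The part of these overlaps in the values of *Fam162a* was not tested.

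*Ddit4* and *Stc2*, both known as stress-responsive, followed another course. *Ddit4* (Redd1; chr10:59785491-59788492, minus strand), which restrains mTORC1 through the TSC complex, had 40.1 and 39.7 CPM at day 1, 88.8 and 94.1 CPM at day 7, 31.1 and 31.7 CPM at day 10, and 32.4 and 32.5 CPM at day 14. The day 7 libraries stood far above all others, and those of days 10 and 14 lay below both day 1 libraries. It rose at day 7, by 1.18 ± 0.05 on the log2 scale (standard error; adjusted p = 1.6e-16, limma), and the Log2FC of -0.34 at day 10 and -0.29 at day 14 were not past -1. *Ddit4* was the single gene of the 10 with a mean at day 14 below that of day 1.

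*Stc2* (stanniocalcin; chr11:31307307-31320124, minus strand), a secreted glycoprotein that inhibits a protease of the insulin-like growth factor axis, was at low expression. It had 9.03 and 10.4 CPM at day 1, 20.6 and 21.7 CPM at day 7, 9.49 and 7.90 CPM at day 10, and 16.9 and 20.9 CPM at day 14. Its day 10 libraries overlapped those of day 1, and its day 14 libraries overlapped those of day 7. The Log2FC was 1.05 at day 7 (standard error 0.10, adjusted p = 1.0e-09, limma), a call lost at 0.96 without day 1 replicate 1. At day 14 it was 0.89, not called, and 1.04 without day 14 replicate 1.

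*Ankrd37* (chr8:46449939-46458744, minus strand) had the widest range of the 10 genes over the days as a ratio. This small ankyrin repeat protein is known mainly as a HIF target. It had 0.354 and 0.314 CPM at day 1, 39.9 and 42.9 CPM at day 7, 4.47 and 3.09 CPM at day 10, and 20.02 and 18.3 CPM at day 14. The gene was thus near 0 at day 1 (12 and 10 reads), highest at day 7, and no libraries of different days overlapped. The ratio of means to day 1 was 124 at day 7, 11.3 at day 10 and 57.3 at day 14. The Log2FC of 4.99, 1.83 and 3.92 (standard error 0.12, adjusted p at most 2.1e-13, limma) understates these ratios because of the pseudocount of 1, and at day 14 it was 5.86 under the alternative setting that gave the highest value.

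*Ankrd37* shares 65.6% of the 31-base words of its transcript with *Ufsp2* and *Lrp2bp* on the opposite strand, and whether the counting used strand is not given in the sources used here. *Ufsp2* had means of 52.8, 58.9, 37.2 and 63.6 CPM at days 1, 7, 10 and 14. *Lrp2bp* had 0.166, 0.837, 1.17 and 1.86 CPM at these days, and 0.880 and 1.96 CPM in CD61low and CD61high cells. The part of these overlaps in the values of *Ankrd37* was not tested. The promoter of *Ankrd37* (chr8:45999801-46000100, GRCm38.p6, RefSeq, minus strand) is printed for its match close to the start.
Ankrd37: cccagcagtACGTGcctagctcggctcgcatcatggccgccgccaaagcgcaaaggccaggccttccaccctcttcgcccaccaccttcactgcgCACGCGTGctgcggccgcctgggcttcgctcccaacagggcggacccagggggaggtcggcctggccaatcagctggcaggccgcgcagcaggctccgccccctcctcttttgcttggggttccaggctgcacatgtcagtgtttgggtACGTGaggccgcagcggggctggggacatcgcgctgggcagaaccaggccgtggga
Of its 2 ACGTG, 1 lies 6 bases and 1 lies 241 bases before the start, and its 2 GCGTG overlap on opposite strands at 155 and 152 bases before it. At least 4 matches were found in 3.86% of all promoters.

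*Kdm3a* (chr6:71565956-71610472, minus strand), a JmjC histone demethylase that removes repressive methyl marks and needs oxygen to do so, was the single gene with a higher mean at each successive day. It had 80.2 and 77.2 CPM at day 1, 116 and 116 CPM at day 7, 159 and 154 CPM at day 10, and 250.4 and 244 CPM at day 14. The 4 days did not overlap. The Log2FC was 0.55 at day 7 and 0.98 at day 10, not called, and 1.64 at day 14 (standard error 0.04, adjusted p = 8.6e-23, limma). The day 10 value lay just under the threshold and passed it, at 1.01, without day 1 replicate 1 or without day 10 replicate 2.

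*Mxi1* (chr19:53298852-53364241, plus strand), a MAX-binding repressor that opposes MYC, had 19.01 and 19.4 CPM at day 1, 47.1 and 48.3 CPM at day 7, 48.3 and 41.9 CPM at day 10, and 126 and 129.6 CPM at day 14. Days 7 and 10 overlapped, and day 14 stood apart above them. All 3 comparisons with day 1 were called, with Log2FC of 1.27, 1.18 and 2.67 (standard error 0.06, adjusted p at most 8.4e-16, limma).

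*Bhlhe40* (Dec1; chr6:108636626-108644502, plus strand), a basic helix-loop-helix repressor tied to the circadian clock, was the most abundant by CPM at days 1, 7 and 10. It had 124 and 123 CPM at day 1, 543 and 543 CPM at day 7, 198 and 187 CPM at day 10, and 268 and 250.99 CPM at day 14. The day 7 libraries stood far above every other library, and no days overlapped. It was called at day 7, where the Log2FC reached 2.13 ± 0.04 (standard error; adjusted p = 3.0e-25, limma), and, at 1.07 and just past the threshold, at day 14 (adjusted p = 9.4e-19), while day 10 had 0.64.

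The successive days separate these courses. From day 7 to day 10, 4 of the 10 genes were called lower and 0 higher, against 0.786% and 1.43% of all genes. The 4 were *Ankrd37*, *Ddit4*, *Bhlhe40* and *Stc2*. *Ankrd37* fell by 3.16 (standard error 0.12, adjusted p = 2.1e-17, limma), the lowest Log2FC of all 12725 genes. *Ddit4* fell by 1.51 and *Bhlhe40* by 1.49, which ranked 14 and 15 from the bottom, and *Stc2* fell by 1.195 (adjusted p at most 2.1e-10). *Bnip3*, *Fam162a* and *Higd1a* had Log2FC of -0.66, -0.82 and -0.67, short of the threshold, and *Bnip3l* and *Mxi1* had -0.16 and -0.08. *Kdm3a* had 0.43, also not called, and was the 1 gene higher at an unadjusted p below 0.05. The edgeR fit on the recovered reads gave 4 lower and 0 higher too.

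From day 10 to day 14, 5 of the 10 were called higher and 0 lower, against 2.09% and 0.872% of all genes, and 0 were lower at an unadjusted p below 0.05 or by edgeR on the recovered reads. *Ankrd37* rose by 2.09, *Bnip3* by 1.95, *Mxi1* by 1.49, *Stc2* by 1.04 and *Fam162a* by 1.02 (adjusted p at most 2.1e-09, limma). *Higd1a* had 0.94 and was called at 1.00 with TMM scaling and with edgeR on the recovered reads. *Ddit4* had 0.05 (adjusted p = 0.46). This comparison and the one before it share the libraries of day 10, which enter them with opposite sign. In 9 of the 10 genes, all but *Ddit4*, day 10 replicate 2 was the lower of its pair. Without it, 3 genes in place of 5 were called from day 10 to day 14, *Stc2* having 0.92 and *Fam162a* 0.94. *Stc2* also fell short of the threshold, at 0.89, without day 14 replicate 2.

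Days 7 and 14 were compared after the values had been seen. At day 14, 3 genes were called higher and 3 lower, against 1.91% and 0.519% of all genes. *Mxi1* (Log2FC 1.40), *Bnip3* (1.29) and *Kdm3a* (1.08) were higher at day 14, with adjusted p of at most 3.8e-16 in limma. *Ddit4* (-1.47), *Ankrd37* (-1.07) and *Bhlhe40* (-1.06) were lower, with adjusted p of at most 1.7e-08. *Fam162a*, *Higd1a*, *Bnip3l* and *Stc2* lay between -0.16 and 0.57.

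**Figure D2:**
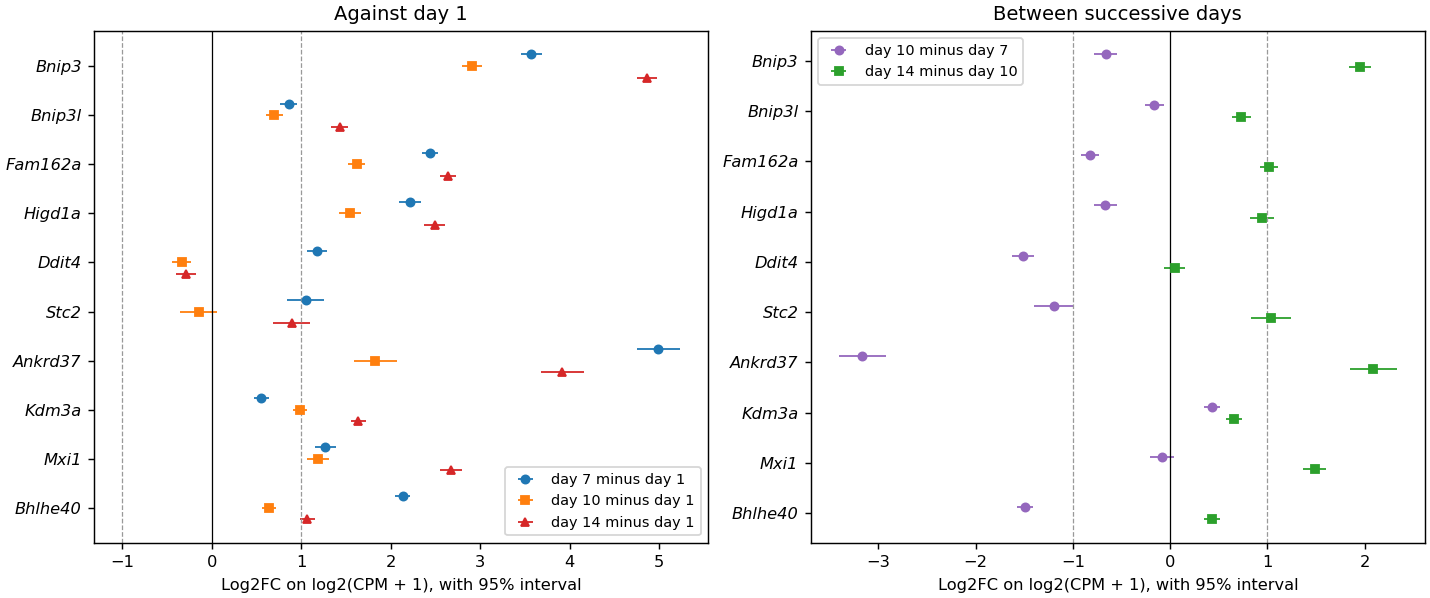
Log2FC of the 10 genes on the log2(CPM + 1) scale, with 95% intervals from the limma fit; the left panel compares days 7, 10 and 14 with day 1 and the right panel compares successive days, and dashed lines mark -1 and 1. *Ankrd37* has the longest swing on the right, from -3.16 to 2.09, while *Ddit4* falls by 1.51 and then has 0.05.

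Levels of different genes were compared per length, as RPKM (CPM divided by the gene length in kilobases that the deposited table gives). *Fam162a* was the highest of the 10 at every day, with 76.8 ± 2.54 RPKM at day 1 and 485 ± 5.89 RPKM at day 14 (SD, n = 2). *Bnip3* moved from rank 8, with 2.93 ± 0.198 RPKM at day 1, to rank 2, with 97.6 ± 5.52 RPKM at day 14. *Ddit4* went the other way, from rank 3 with 23.7 ± 0.133 RPKM to rank 8 with 19.3 ± 0.0725 RPKM. At day 14 the order below *Bnip3* was *Higd1a* (87.6 RPKM), *Bhlhe40* (75.0), *Kdm3a* (50.5), *Bnip3l* (31.6), *Mxi1* (22.8), *Ddit4* (19.3), *Ankrd37* (11.9) and *Stc2* (2.68), and no neighbours in that order overlapped between libraries. *Stc2* was the lowest of the 10 at days 7, 10 and 14, and *Ankrd37* at day 1. These orders depend on the lengths used, and no other length was tried for the days. The lengths were 5611 bases for *Mxi1*, 7070 for *Stc2* and 1612 for *Ankrd37*. Their main transcripts quantified in the sort have 2627, 3940 and 927 bases.

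For each of the 10 genes the 3 most similar profiles were looked for among the 10313 genes whose mean reached 5 CPM, by the root-mean-square difference of mean-centred log2(CPM + 1) over the 8 libraries. The libraries of a day share their treatment, so these are descriptions over 4 conditions. *Fam162a* and *Higd1a* were among each other's 3 nearest, at a difference of 0.09, and the HIF targets *P4ha2*, *Vegfa* and *Pgk1* filled the other places. *Bnip3* was nearest to *Ak4* (0.16), *Hspb7* and *Rtkn2*. *Bhlhe40* lay close to *Ier3* (0.07), which went from 12.9 CPM at day 1 to 63.0 at day 7 and 29.8 at day 14, and then at a distance to *Chst11* (0.21) and *Car6*. *Mxi1* was nearest to *AU021092* (0.10), *Arrb1* and *2310042D19Rik*, *Kdm3a* to *Capn5* (0.08), *Clcn3* and *Map3k1*, and *Bnip3l* to *Tead4* (0.06), *Dyrk2* and *Gng11*. *Stc2* was nearest to *Mipol1* (0.15), *Tarsl2* and *Lgalsl*, and *Ddit4* to *Mgp* (0.27), *Nfil3* and *Avil*. *Ankrd37* had no close match, since the nearest genes, *Col15a1*, *Ndrg2* and *Tnfrsf11b*, were 0.65 or more away.

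In the sorted cells, the question was whether cells of 1 culture that differ in surface CD61 differ in these genes. The test was edgeR's quasi-likelihood test on summed estimated counts, with the same thresholds, over the 12077 genes that reached 5 normalized counts in each of the 6 libraries. All 10 genes passed this filter. Of them 4 were called higher in CD61high cells and 0 lower, against 4.84% and 4.37% of all genes. In 8 of the 10 genes all 3 CD61high libraries lay above all 3 CD61low libraries, and in *Ddit4* and *Stc2* all 3 lay below. Such a separation was common, since 29.6% of all genes tested lay wholly above and 28.5% wholly below. These 2 were lower at an unadjusted p below 0.05, and DESeq2 also called 4 higher and 0 lower. The median Log2FC was 0.83 for the 10 genes and 0.00 for all genes.

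*Bnip3* had 190.3, 138 and 173 CPM (TMM-normalized, as all values of sorted cells below) in the CD61low libraries and 396, 395 and 393 CPM in the CD61high libraries. The CD61high libraries were nearly alike and the CD61low libraries more spread, with a wide gap between the groups. The Log2FC was 1.24 (standard error 0.11, adjusted p = 7.6e-06, edgeR). *Bnip3l* had 121, 114 and 118 CPM in CD61low and 151, 135 and 157 CPM in CD61high cells, a smaller step with no overlap. Its Log2FC was 0.33 (standard error 0.08, adjusted p = 0.0044, edgeR), short of the threshold for a call.

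*Fam162a* had 82.6, 63.5 and 65.7 CPM in CD61low and 107, 122 and 122 CPM in CD61high cells. *Higd1a* had 52.7, 41.5 and 42.2 CPM in CD61low and 65.1, 78.2 and 83.4 CPM in CD61high cells. Both had a Log2FC of 0.73 (standard errors 0.11 and 0.12, adjusted p = 2.6e-04 and 5.1e-04, edgeR), below the fold of a call, and in both CD61low replicate 1 lay nearest to the CD61high libraries.

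*Ddit4* and *Stc2* were the exceptions in direction. *Ddit4* had 21.0, 20.4 and 21.2 CPM in CD61low and 14.2, 18.4 and 16.4 CPM in CD61high cells, and its Log2FC of -0.35 did not pass the test (adjusted p = 0.023, edgeR, standard error 0.11). *Stc2* had 16.3, 16.2 and 16.6 CPM in CD61low and 9.74, 10.4 and 8.88 CPM in CD61high cells. Its Log2FC was -0.76 (standard error 0.11, adjusted p = 2.7e-04, edgeR), short of -1, with every CD61high library well below the narrow CD61low range.

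*Ankrd37* and the 3 genes of transcriptional regulators had, beside *Bnip3*, the largest steps. *Ankrd37* had 16.0, 11.4 and 13.1 CPM in CD61low and 32.3, 36.5 and 34.9 CPM in CD61high cells, and the Log2FC was 1.36 ± 0.13 (standard error; adjusted p = 1.3e-05, edgeR). *Bhlhe40* had 275, 224 and 274 CPM in CD61low and 644, 617 and 639 CPM in CD61high cells, a Log2FC of 1.30 (standard error 0.09, adjusted p = 1.6e-06). Both rose with groups far apart. *Mxi1* had 103.7, 82.8 and 89.9 CPM in CD61low and 229.8, 211 and 209 CPM in CD61high cells, and the Log2FC was 1.23 ± 0.09 (standard error; adjusted p = 2.7e-06, edgeR). *Kdm3a* had 185, 171 and 209.6 CPM in CD61low and 397, 331 and 346 CPM in CD61high cells, a Log2FC of 0.93 (standard error 0.10, adjusted p = 2.8e-05). *Kdm3a* alone of the 4 stayed below the fold of a call, although its groups did not overlap.

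CD61low replicate 2 held the lowest of the 3 CD61low values in all 10 genes. Without it the calls were again 4 higher and 0 lower, and *Bnip3* had its lowest leave-one-out Log2FC, 1.11. The TMM factors were 1.10 to 1.13 in CD61low and 0.895 to 0.909 in CD61high libraries, and with library size alone the median Log2FC of all genes moved to -0.29 and 24.7% of the called genes were higher in place of 52.6%. On that scale 1 of the 10 genes was called higher, *Ankrd37* at 1.06, and 1 lower, *Stc2* at -1.06, where 7.995% of all genes were called lower and 2.62% higher. *Bhlhe40* had 0.997, *Bnip3* 0.94, *Mxi1* 0.93 and *Bnip3l* 0.03, and each of the 10 genes kept the sign of its Log2FC.

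**Figure D3:**
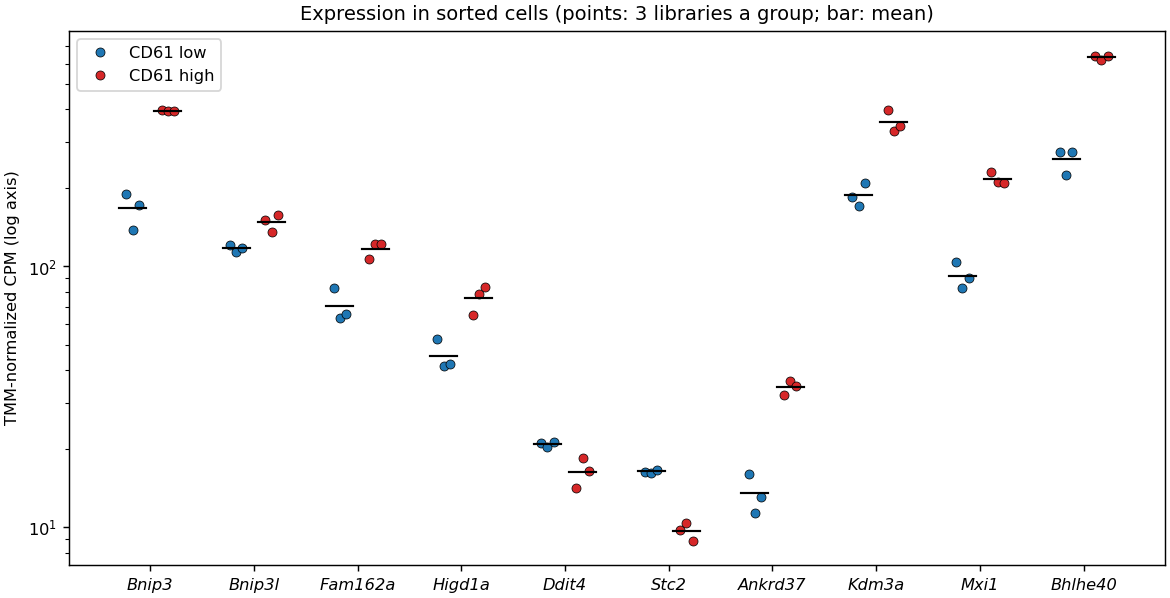
TMM-normalized CPM (log axis) of the 10 genes in each sorted library; points are the 3 libraries of a group and the bar is their mean. The CD61high points lie above the CD61low points in 8 genes and below them in *Ddit4* and *Stc2*, and in no gene do the groups overlap, a separation found in 29.6% (above) and 28.5% (below) of all genes tested.

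Other markers also moved with the sort. Cartilage markers (3 of 3 found) summed to 37.4 to 47.1 CPM in CD61low and 96.4 to 113 CPM in CD61high cells, and lineage markers of osteoblasts and osteocytes to 15948 to 19444 and 44414 to 47003 CPM. Most of the lineage sum was *Col1a1*, with means of 17664 and 44785 CPM. Of 7 lineage markers tested, 6 were called higher in CD61high cells and 0 lower, against 4.84% and 4.37% of all genes. Macrophage markers (5 of 5 found) summed to 12.8 to 15.8 CPM in CD61low and 8.18 to 8.86 CPM in CD61high cells, with *Adgre1* at 0 in all 6 libraries and *Ptprc* at 0 in CD61high cells. Immediate early genes respond to handling and dissociation. Of 11 tested, 3 were called higher in CD61high cells and 1 lower, against 4.84% and 4.37% of all genes. Of 10 cell cycle genes tested, edgeR and DESeq2 each called 0, with a median of 0.43 (0.00 for all genes) and with 7 higher and 1 lower in CD61high cells at an unadjusted p below 0.05. The part of these markers in the sorted differences was not tested either.

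Per length, as TPM (transcript abundances scaled to a common total, summed over the transcripts of a gene), the order in CD61low cells was *Fam162a* (261 ± 25.7), *Bnip3* (236 ± 49.1), *Bhlhe40* (157 ± 18.2), *Bnip3l* (129.7 ± 6.26), *Kdm3a* (109 ± 20.5), *Higd1a* (96.8 ± 11.8), *Mxi1* (67.4 ± 7.26), *Ankrd37* (36.7 ± 5.69), *Ddit4* (25.2 ± 1.04) and *Stc2* (8.04 ± 0.304; SD, n = 3). *Fam162a* and *Bnip3* overlapped there, as did the neighbours from *Bhlhe40* down to *Higd1a*. In CD61high cells *Bnip3* stood first and apart, at 444 ± 31.1 TPM, above *Fam162a* at 338 ± 7.71 and *Bhlhe40* at 308 ± 22.1 TPM, which overlapped. *Kdm3a*, *Higd1a*, *Bnip3l* and *Mxi1* followed between 155 and 125 TPM, each overlapping its neighbour, and *Ankrd37* came next at 77.1 ± 2.37 TPM. *Ddit4* and *Stc2* were again last, at 16.1 ± 1.503 and 3.84 ± 0.284 TPM. With the gene's counts divided by the effective length of its main transcript, the middle of the order turned in CD61high cells to *Mxi1* (134), *Kdm3a* (119), *Ankrd37* (78.8), *Bnip3l* (76.6) and *Higd1a* (64.8 TPM), and *Bnip3l* and *Higd1a* had 77.2 and 49.2 TPM in CD61low cells.

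The transcript estimates added a detail in *Mxi1*. Its main transcript, Mxi1-201, starts at the 5′ end of the gene (chr19:53298852-53364241, GRCm39), and Mxi1-203 starts downstream (chr19:53317844-53364241). Mxi1-201 had 80.3, 68.7 and 71.2 CPM in CD61low and 205, 187 and 192 CPM in CD61high cells. Mxi1-203 had 22.1, 13.1 and 17.2 CPM in CD61low and 21.3, 21.8 and 15.5 CPM in CD61high cells. The groups did not overlap for the transcript from the upstream start, with a ratio of means of 2.65, and overlapped for the downstream one, with 1.12. The share of *Mxi1* counts on Mxi1-203 was 21.3, 15.8 and 19.2% in the CD61low libraries and 9.28, 10.3 and 7.39% in the CD61high libraries, again with no overlap. These shares are Salmon's estimates, made where the transcripts share most of their sequence, and no test was run on them.

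**Figure D4:**
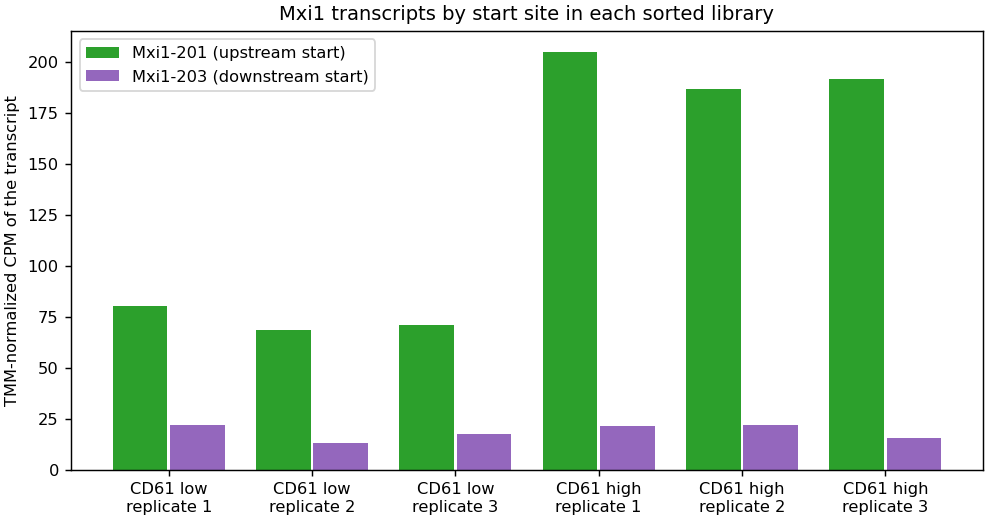
TMM-normalized CPM (axis from 0) of the *Mxi1* transcripts Mxi1-201, from the upstream start, and Mxi1-203, from the downstream start, in each of the 6 sorted libraries. Mxi1-201 is at 68.7 to 80.3 CPM in CD61low and 187 to 205 CPM in CD61high libraries, while Mxi1-203 overlaps between the groups.

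The windows at these 2 starts are printed because most *Mxi1* counts fell on the transcripts that begin there (RefSeq, GRCm38.p6, plus strand, chr19:53310256-53310555 for Mxi1-201 and chr19:53329163-53329462 for Mxi1-203, matched by the first 30 bases after the start).
Mxi1-201 start: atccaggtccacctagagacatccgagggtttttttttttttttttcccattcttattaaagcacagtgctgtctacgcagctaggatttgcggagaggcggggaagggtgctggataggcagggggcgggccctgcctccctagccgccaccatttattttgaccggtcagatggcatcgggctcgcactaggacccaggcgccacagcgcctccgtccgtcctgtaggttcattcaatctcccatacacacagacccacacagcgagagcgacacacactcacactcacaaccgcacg
Mxi1-203 start: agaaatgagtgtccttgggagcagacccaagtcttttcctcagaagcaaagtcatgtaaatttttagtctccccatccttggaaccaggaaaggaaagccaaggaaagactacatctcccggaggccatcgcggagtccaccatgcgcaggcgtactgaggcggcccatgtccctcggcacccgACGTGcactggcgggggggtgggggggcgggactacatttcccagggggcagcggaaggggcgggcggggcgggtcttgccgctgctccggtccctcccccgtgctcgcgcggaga
The window of Mxi1-201 held no match to ACGTG or GCGTG, which says only that these letters are not in it. That of Mxi1-203 held 1 ACGTG, 66 bases before the start. Among the other genes, Bnip3-201 had 157 ± 18.2 CPM in CD61low and 374 ± 6.33 CPM in CD61high cells. *Ddit4* had a single transcript among those quantified in the sorted libraries. Ankrd37-201, the coding transcript of *Ankrd37*, had 10.3 ± 1.47 CPM in CD61low and 28.1 ± 1.06 CPM in CD61high cells. The coding transcripts Kdm3a-201 and Kdm3a-214 of *Kdm3a* share both ends and had ratios of means of 1.65 and 4.54. Kdm3a-201 had 124 to 146 CPM in CD61low and 165 to 266 CPM in CD61high libraries, and Kdm3a-214 had 8.75 to 23.96 CPM and 52.0 to 96.1 CPM, with no overlap in either. Kdm3a-202, which ends at the same base, had 35.8, 95.1 and 568 estimated counts in CD61low and 435, 371 and 0 in CD61high libraries, so the split among these overlapping transcripts is uncertain.

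Promoters were in the table for 8 of the 10 genes, in 12 windows of 300 bases, and *Bnip3l* and *Bhlhe40* had none. Motifs were counted on both strands. ACGTG was found in 7 of the 12 windows and in 19.6% of all 32851 promoters, and GCGTG in 7 of the 12 and in 32.4% of all promoters. The window of *Ddit4* held 1 of each, that of *Stc2* 2 GCGTG and the first of *Kdm3a* 1 GCGTG at 27 bases before the start, while the other 2 windows of *Kdm3a* held neither. Whether a match goes with the direction of a gene in the sort was not tested. The CACGTG of the *Bnip3* window contains 2 ACGTG, 1 on each strand, so these counts are not independent.

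The 2 experiments share no libraries and differ in culture time, RNA isolation and quantification, so their values are set side by side without a test. *Bnip3*, *Ankrd37*, *Mxi1* and *Bhlhe40* were called higher both at day 14 against day 1 and in CD61high against CD61low cells. *Fam162a*, *Higd1a*, *Kdm3a* and *Bnip3l* were called higher at day 14 and had positive values below 1 in the sort. *Bhlhe40* paired the smallest called value at day 14 (1.07) with a value in the sort (1.30) that only *Ankrd37* exceeded. *Stc2* had 0.89 at day 14 and -0.76 in the sort, and *Ddit4* was negative in both (-0.29 and -0.35).

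**Figure D5:**
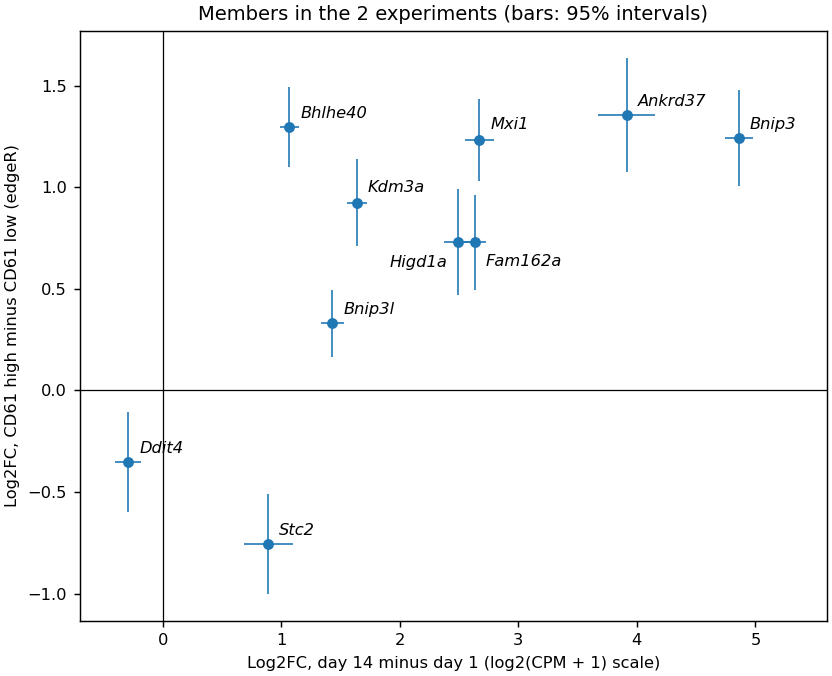
Log2FC between CD61high and CD61low cells (edgeR) against Log2FC between day 14 and day 1 (limma, log2(CPM + 1) scale) for the 10 genes, with 95% intervals. 8 genes lie in the upper right, *Stc2* has 0.89 on the x axis and -0.76 on the y axis, and *Ddit4* lies below 0 on both.

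Other genes of the same pathways were counted in the same fits. Of 31 other HIF targets tested against day 1, 23 were called higher at day 7, 19 at day 10 and 26 at day 14. The shares of all genes were 4.49%, 6.06% and 7.51%, and 0 of the 31 were called lower. At an unadjusted p below 0.05, 2, 3 and 2 of them were lower at these days, and edgeR on the recovered reads also called 0 lower. Their median Log2FC at day 14 was 2.47, led by *Egln3*, the HIF prolyl hydroxylase (6.98), and *Ndufa4l2*, a respiratory chain subunit relative (6.53). In the sort 18 of 32 were called higher and 0 lower by edgeR and by DESeq2, against 4.84% and 4.37% of all genes by edgeR. The median was 1.03, and 1 gene was lower at an unadjusted p below 0.05. From day 7 to day 10, 3 of the 31 HIF targets were called lower and 0 higher, against 0.786% and 1.43% of all genes. At an unadjusted p below 0.05 (limma), 26 were lower and 2 higher. EdgeR on the recovered reads called 5 lower and 0 higher. The median of the 31 was -0.53, where the 10 genes had -0.74. Of 6 HIF subunits and sensors tested, *Epas1*, which encodes HIF-2 alpha, was called higher at days 7, 10 and 14 and in CD61high cells. Its mean went from 5.10 ± 0.240 CPM at day 1 up to 125 ± 4.94 CPM (SD, n = 2) at day 14, while *Hif1a*, not called at any of them, had 232 ± 5.56 and 274.5 ± 0.970 CPM.

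The machinery around the mitophagy receptors was counted in the same way. Of 26 other mitophagy receptors and autophagy genes tested, 1 (against 7.51% of all genes) was called higher and 0 lower at day 14 against day 1, and 0 were called in the sort. The medians were 0.04 and 0.06, over genes of both signs. At an unadjusted p below 0.05, the split was 11 higher to 8 lower at day 14, and 9 to 7 in the sort, and neither edgeR on the recovered reads nor DESeq2 called more. The 1 gene was *Ulk1*, the kinase that starts autophagy, with a Log2FC of 1.34 at day 14 (adjusted p = 9.0e-21, limma) and 0.94 in CD61high cells. Of 23 genes of mitochondrial content tested, 1 was called higher at day 14, *Cox4i2* at a mean of 1.15 ± 0.141 CPM, and 0 lower, with a median of -0.18. At an unadjusted p below 0.05, 7 were higher and 10 lower at day 14, and edgeR on the recovered reads also called 1 higher and 0 lower. In the sort 0 of 22 such genes were called, with a median of -0.14. At an unadjusted p below 0.05, 3 of the 22 were higher and 10 lower in the sort (edgeR), and DESeq2 called 0.

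For the growth and stress arm, 15 regulators of TSC and mTORC1 were tested. At day 7, where *Ddit4* peaked, *Sesn2* was called higher (Log2FC 1.08; 4.49% of all genes were higher and 4.62% lower) and *Txnip* (-2.36), *Ddit4l* (-1.41) and *Deptor* (-1.30) lower, and in the sort edgeR and DESeq2 each called 0, with 3 higher and 4 lower at an unadjusted p below 0.05. *Ddit4l*, the closest relative of *Ddit4*, thus had the opposite sign at day 7. *Sesn2*, *Ddit4l* and *Deptor*, like *Hif1a* above and *Myc* among the genes below, were picked after their values were seen. ATF4 is a known activator of *Stc2* and *Ddit4*. Of 14 ATF4 and unfolded protein response genes, 7 were called higher at day 7, 6 at day 10 and 5 at day 14. The shares of all genes were 4.49%, 6.06% and 7.51%. At each of these days 0 of the 14 were called lower, against 4.62%, 4.42% and 5.9% of all genes. At an unadjusted p below 0.05 (limma), 0, 2 and 3 were lower, and edgeR on the recovered reads called 0, 0 and 1 lower. In CD61high cells 5 of the 14 were called lower and 0 higher, against 4.37% and 4.84% of all genes, with a median of -0.82. *Slc7a11*, the cystine transporter, had 16.8 ± 3.20 CPM in CD61low and 2.08 ± 0.462 CPM in CD61high cells (SD, n = 3; Log2FC -3.01, adjusted p = 1.6e-06, edgeR), and *Hspa5*, the chaperone BiP, had a Log2FC of -2.15. *Ddit4* and *Stc2*, with -0.35 and -0.76, had the same sign there and were not called. At day 7 against day 1 the median of the list was 0.92, and *Ddit4* (1.18) and *Stc2* (1.05) were called higher too. At day 10 against day 1 the list's median was 0.87, where *Ddit4* had -0.34 and *Stc2* -0.15. At day 14 against day 1 it was 0.37, with -0.29 for *Ddit4* and 0.89 for *Stc2*. From day 7 to day 10 the list's median was 0.05, while both genes were called lower. From day 10 to day 14 the list's median was -0.38, where *Ddit4* had 0.05 and *Stc2*, called higher, had 1.04. The part of ATF4 in these values was not tested.

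For the transcription arm, relatives were compared family by family. Among all genes 7.51% were called higher at day 14 and 4.84% in the sort, and the small counts that follow are to be read against these shares. Of 9 other MYC, MAX and MXD genes tested, 1 was called higher at day 14, *Mxd1* (Log2FC 1.51), a MAX-binding repressor like *Mxi1*, and 2 in CD61high cells, *Mxd1* (1.14) and *Mxd4* (1.06). *Myc* itself had 0.53 and -0.02. Of 15 other JmjC demethylases tested, 3 were called higher at day 14, among them *Kdm7a* (1.84) and *Kdm4b* (1.53), and 1 in CD61high cells, *Kdm7a* (1.13). Of 16 circadian clock genes tested, 2 were called higher at day 14, *Npas2* (3.42) and *Rora* (2.18), and 1 in CD61high cells, *Npas2* (1.73). *Bhlhe41*, the paralog of *Bhlhe40*, was the 1 clock gene called lower at day 14 (-1.46, adjusted p = 4.8e-15, limma), from 34.6 ± 0.709 CPM at day 1 down to 12.0 ± 1.52 CPM (SD, n = 2), and had 0.10 in the sort.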

How the data were processed

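RNA-seq libraries of 8 differentiating and 6 sorted Ocy454 samples were used, all 14 with a group in the labels. For differentiation the authors aligned reads with STAR, counted them with HTSeq and deposited CPM, in which 100% of values fell within 0.01 read of a whole number. The build, annotation and strand setting of that table are not given in the sources used here. For the sort the authors ran Salmon per library and deposited estimated counts and TPM per transcript. Here 115556 of 116747 transcripts (99.3 to 99.4% of counts) were summed to genes by GENCODE M39 (GRCm39), and the estimated counts were rounded.

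Differentiation was fitted with limma 3.58.1 (trend) on log2(CPM + 1) over all 8 libraries. The sort was fitted with edgeR 4.0.16 after TMM scaling over all genes. Calls needed an adjusted p below 0.01 over all genes tested and a Log2FC past 1. The scripts were tested on simulated data. DESeq2 1.42.0, other scalings, filters, pseudocounts and thresholds, edgeR on the recovered reads, a replicate block and leaving out each library were tried. With R 4.3.3 and Python 3.11.15, promoters were read from RefSeq (GRCm38.p6).

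The 10 genes and the related lists were chosen with earlier results of these data known. All 10 genes are named in each comparison. From a related list, at most 2 called genes with the largest and 2 with the smallest Log2FC at day 14 or in the sort were named. *Mki67*, which was not called, and the genes given above as picked after their values were seen are exceptions. For each of the 10 genes its 3 nearest profiles were named. The differentiation libraries are described as biological duplicates and the sorted ones as 3 independent groups of cells. Where libraries share a culture, p-values measure only the spread between them.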

Additional observations from a re-analysis of the deposited data

How the results depend on the processing

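The calls of the 10 genes rested mainly on the Log2FC threshold, on scaling in the sort and on 1 library of day 10. With an adjusted p below 0.01 alone, 8 genes were higher and 1 lower at day 10 against day 1, 1 lower at day 14 against day 1, 1 higher and 8 lower from day 7 to day 10, 9 higher from day 10 to day 14, 6 higher at day 14 against day 7, and 8 higher and 1 lower in CD61high cells. Among all genes that threshold called 33.1% higher and 30.3% lower at day 10 against day 1, 36.0% lower at day 14, 29.8% higher and 18.9% lower from day 7 to day 10, 22.9% higher from day 10 to day 14, 27.0% higher at day 14 against day 7, and 19.4% higher and 16.0% lower in the sort. With library size alone the sort gave 1 higher and 1 lower. Leaving out 1 library at a time gave 7 to 8 higher at day 7, 5 to 6 at day 10 and 8 to 9 at day 14 against day 1, and 4 in each case in the sort. From day 10 to day 14 it gave 3 to 6, with 3 without day 10 replicate 2. The Log2FC of *Mxi1* from day 7 to day 10, -0.08 with all libraries, ran from -0.19 without day 10 replicate 1 to 0.017 without day 10 replicate 2. No cause was tested.

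Of 1230 single Log2FC under alternatives, 1190 kept their sign and side of the threshold, 7 lost a call, 32 gained one and 1 changed sign.

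Over all genes, 182 rose and 100 fell from day 7 to day 10. With a pseudocount of 0.1 these counts were 377 and 175, with edgeR on the recovered reads 332 and 216, with quantile normalization 131 and 132, and with TMM scaling 145 and 127, so that 49.8% and 53.3% of the called genes were higher under the last 2 settings in place of 64.5%. From day 10 to day 14, 266 and 111 became 425 and 246 with a pseudocount of 0.1 and 502 and 227 with edgeR. From day 7 to day 14, 243 and 66 became 423 and 125, and 438 and 130. At day 7 against day 1, 571 higher became 876 with edgeR. With an adjusted p below 0.01 alone the counts were 3115 and 4076, 4215 and 3862, and 4151 and 4575 at days 7, 10 and 14 against day 1, 3798 and 2399 from day 7 to day 10, 2909 and 3812 from day 10 to day 14, 3441 and 2772 from day 7 to day 14, and 2342 and 1933 in place of 585 and 528 in the sort. From day 10 to day 14 this took the share of higher genes from 70.6% to 43.3%. Library size alone gave 316 and 963 in the sort.

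The CD61high and CD61low cells were sorted from 3 groups of cells, but the labels do not say whether a number marks a shared group, and the values did not show it. Deviations of same-numbered libraries correlated at -0.03 to 0.06 in differentiation and at -0.32, 0.22 and -0.06 in the sort, across genes. With the replicate number as a block, the counts of the 10 genes were 8, 5 and 8 higher against day 1, 4 lower from day 7 to day 10, 5 higher from day 10 to day 14 and 4 higher in the sort, as without it. Over all genes the sort then gave 574 higher and 509 lower.

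Groups of 2 or 3 libraries limit the precision, and *Ankrd37* at day 1 rests on 12 and 10 reads.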
